A study of Mus musculus with 48 samples.

Results

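The corticosteroid receptors, the enzyme that makes their ligand inside cells and a set of classic glucocorticoid-induced genes were followed through all tissues of the Tia1 knockout study. The 10 genes were the glucocorticoid receptor Nr3c1, the mineralocorticoid receptor Nr3c2, the steroid dehydrogenase Hsd11b1 and the induced genes Fkbp5, Tsc22d3, Zbtb16, Klf9, Arrdc2, Hif3a and Errfi1. They were chosen by gene symbol, taking every probe set that the platform annotation assigned to a listed symbol, which gave 27 of the 45037 probe sets tested and 10 of the 17097 annotated genes. The symbols were listed with earlier results of these data known. The study profiled liver and 3 nervous tissues (midbrain, spinal cord and cerebellum) of Tia1 knockout (KO) mice at 3 months and 6 months and of wild-type (WT) mice at 3 months and 6 months, all labelled C57Bl/6 (C57BL6/J in the methods), with 3 mice in each of the 16 groups and 48 arrays in all. In the KO mice, recombination at exon 4 of Tia1 removes the TIA-1 protein in every cell and leaves a shortened transcript. The methods state that the WT mice came from The Jackson Laboratory and that the lines were bred in homozygous matings, whereas the deposited design text calls the WT animals littermates, so genotype and source colony cannot be told apart. The KO mice carried the numbers 122970, 122972 and 122973 and the WT mice the numbers 1, 2 and 3 at each age, and they were taken as 12 separate mice. All were kept on equal light and dark phases with free access to food and were killed by cervical dislocation. The hour of the day at which they were killed, which matters for a hormone with a daily rhythm, is not given in the sources used here.

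Glucocorticoids (corticosterone in mice) are released by the adrenal gland with a daily rhythm and in bursts under stress or fasting. The hormone enters cells and binds NR3C1, which leaves its chaperone complex, moves to the nucleus and switches on genes that carry a glucocorticoid response element. The related receptor NR3C2 binds the same hormone with higher affinity. HSD11B1 regenerates active hormone from its inert 11-keto form, above all in liver. The product of Fkbp5 lowers the affinity of the receptor for its ligand, so that its induction is part of a feedback loop, and receptor transcripts themselves are known to fall when hormone stays high. Since several targets respond within hours, their level depends on what the animal met shortly before death, which is why the values of each mouse are given here.

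Values are log2 intensities of summarised and quantile-normalised probe sets, so that a difference of 1 is a doubling. They are listed in the order 122970, 122972 and 122973 for KO mice and 1, 2 and 3 for WT mice. Each gene is described by its brightest probe set unless another is named. A probe set was called when its limma test passed an adjusted p of 0.05 over all 45037 probe sets. Array medians lay between 3.95 and 4.32, and 8 of the 27 probe sets had a mean over all arrays below the median of these medians (4.25). The median SD within groups was 0.115 in midbrain, 0.122 in spinal cord and 0.133 in cerebellum, and wider in liver at 0.218. The Tia1 probe set at exon 4 was lower in KO mice in all 8 comparisons, by 1.79 to 2.35 on the log2 scale in nervous tissue and by 0.39 and 0.76 in liver, and all 20 measured markers of the 4 tissues were highest in the tissue they define, with Otx2 nearly equal between midbrain (6.98) and the next tissue (6.94). With 3 mice against 3, an exact permutation test cannot go below p = 0.1, and the tests used here borrow the spread from all groups. Groups of this size often do not overlap. In each of the 8 comparisons, 6.11% to 9.35% of all probe sets had every KO mouse above every WT mouse. In 5.42% to 13% every KO mouse lay below every WT mouse. In these bulk tissues fewer cells of a type and less RNA per cell cannot be told apart.

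Sequence around the start of transcription was read for the response element that NR3C1 binds, because this element is what the induced genes are known to share. RefSeq windows on GRCm38.p6, from 250 bases before to 50 bases after the start, were present for 8 of the 10 genes (11 windows) and for 31 of 34 further induced genes named below (41 windows). The full palindrome of AGAACA, any 3 bases and TGTTCT, searched on both strands, was in 3 of 32851 windows of all genes (0.00913%), in none of the 11 and in 1 of the 41, that of Sgk1. The shorter form of GNACA, any 3 bases and TGTNC (N for any base), which also takes every match of the longer one, was in 156 of all windows (0.475%), in none of the 11 and in 7 of the 41. A missing match says only that these letters were not in this window. The matched sites follow on their coding strand with 8 bases on each side and the 13 matched letters in capitals.
Sgk1 (chr10:21993694-21993722, plus strand): tgcggaaaGAACAGAATGTTCtcggagat
Mt1 (chr8:94178987-94179015, plus strand): cactatagGGACATGATGTTCcacacgtc
Txnip (chr3:96557777-96557805, plus strand): cgctaggaGCACACCGTGTCCacgcgccc
Map3k6 (chr4:133240629-133240657, plus strand): gaatagggGCACAGGCTGTTCcggaagtg
Slc10a6 (chr5:103629546-103629574, minus strand): cttccctaGAACACGATGTGCcactgtcg
Fam107a (chr14:8309877-8309905, minus strand): ggtggcttGGACATGGTGTTCtgagtctc
The site of Sgk1 lay 188 bases before the start and that of Mt1 94 bases before it. The Fam107a site was shared by 2 overlapping windows.

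Of the 7 induced genes, Fkbp5, Tsc22d3, Arrdc2 and Errfi1 were called higher in at least 1 nervous tissue of KO mice, and so was Hsd11b1. Over the 6 nervous comparisons, 16 of 162 tests of the 27 probe sets were called higher and 1 was called lower in KO mice, where 0.161% of all tests were called higher and 0.104% lower. At 3 months this came to 14 higher and 1 lower of 81 tests, and at 6 months to 2 higher and none lower of 81. Of the 27 probe sets, 5 were higher and none lower in cerebellum at 3 months (0.366% and 0.182% of all probe sets), and 2 were higher and none lower at 6 months (0.0799% and 0.102%). In spinal cord 5 were higher and none lower at 3 months (0.218% and 0.0933%) and none was called at 6 months (0.109% and 0.0533%). In midbrain 4 were higher and 1, of Nr3c1, was lower at 3 months (0.109% and 0.133%) and none was called at 6 months (0.0822% and 0.06%). In liver 9 probe sets were higher and 1 lower at 3 months (4.92% and 4.53% of all), and 2 were higher and 7 lower at 6 months (5.68% and 5.81%). The nervous tissues of a mouse are samples of 1 animal, so their calls are not independent of each other. Without KO 122972 of 3 months 5 nervous tests were called higher, and without KO 122970 or KO 122972 of 6 months 19 were. The liver calls borrowed the smaller spread of nervous tissue. Liver was also fitted alone, with its own spread but only 12 of the 48 arrays, and the effects of these were not separated. With liver fitted alone, 2 probe sets were called higher and 2 lower over both ages, namely Zbtb16 at 3 months and Fkbp5 and Tsc22d3 (both its bright probe sets) at 6 months, and between the ages in liver only the increase of Zbtb16 in WT mice was called.

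**Figure D1:**
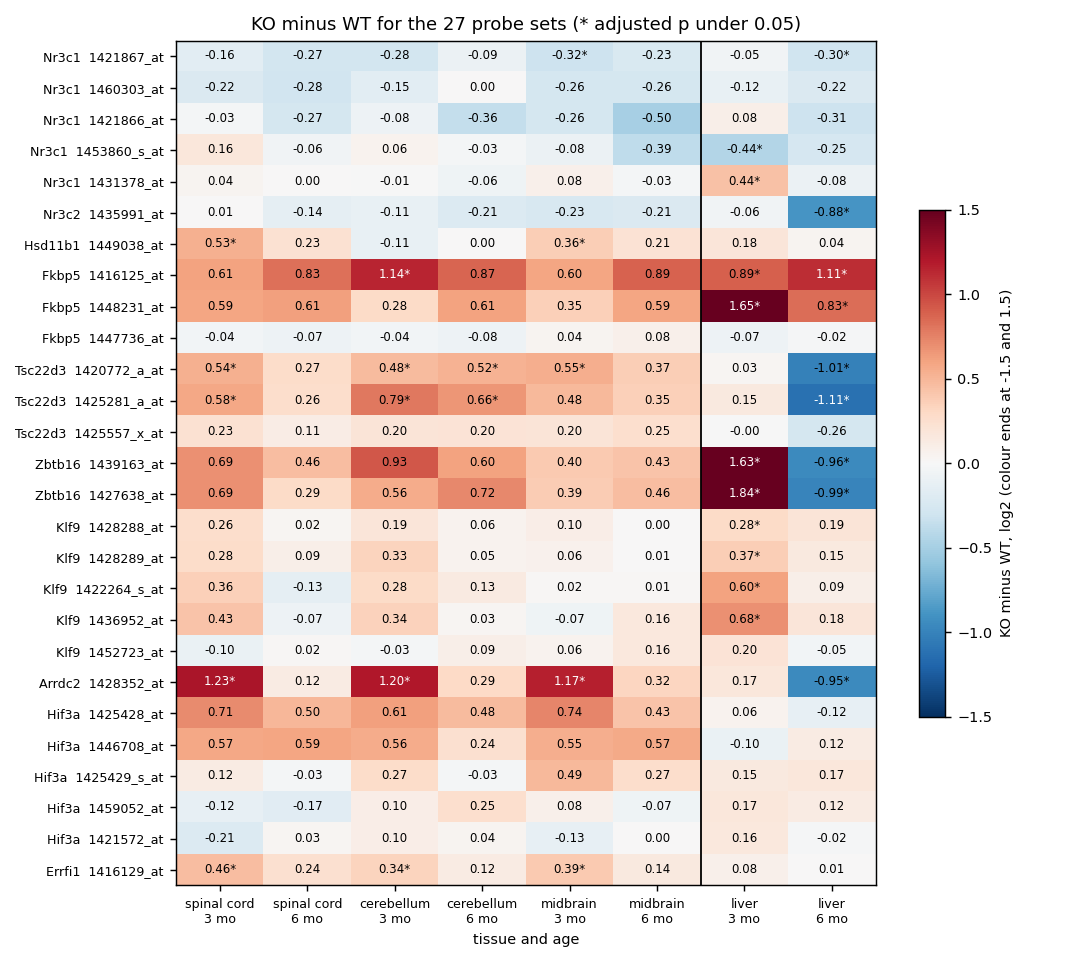
KO minus WT in log2 units for each of the 27 probe sets (rows, by gene, the brightest probe set first) in the 4 tissues at 3 and 6 months (columns), with an asterisk where limma's adjusted p was under 0.05. The Fkbp5, Tsc22d3, Zbtb16, Arrdc2, Hif3a and Errfi1 rows are mostly red in nervous tissue, and the liver at 6 months holds 7 called decreases.

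The glucocorticoid receptor Nr3c1 (probe set 1421867_PM_at) was slightly lower in KO nervous tissue. In midbrain at 3 months its level was 8.59, 8.74 and 8.74 in KO mice, against 9.05, 8.97 and 9.01 in WT mice. In cerebellum at the same age it was 9.11, 9.15 and 9.11 in KO mice, against 9.45, 9.38 and 9.36 in WT mice. All KO mice lay below all WT mice in 5 of the 6 nervous comparisons (5.42% to 13% of all probe sets in each), the exception being cerebellum at 6 months. Only the midbrain difference at 3 months was called (log2 difference -0.32, SE 0.07, adjusted p = 0.0287). That call was lost in 7 of the 12 fits that left out 1 mouse each, namely any mouse of 3 months or WT 3 of 6 months, with adjusted p up to 0.365. When the 3 nervous arrays of each mouse were averaged first, the KO mice stood at 8.77, 8.84 and 8.82 at 3 months and at 8.62, 8.79 and 8.67 at 6 months. The WT means were 9.09, 9.01 and 9.07 at 3 months and 8.93, 8.85 and 8.88 at 6 months. The groups did not overlap at either age, and over both ages the difference was called (-0.22, -1.17-fold, SE 0.04, adjusted p = 0.00509), also in each of the 12 fits that left out a mouse. In liver the receptor differed by -0.05 at 3 months and was lower at 6 months, with 9.08, 9.05 and 9.13 in KO livers and 9.29, 9.52 and 9.33 in WT livers (-0.30, -1.23-fold, adjusted p = 0.00363). This liver call was lost without WT 2 of 6 months (adjusted p = 0.0621) and, like every Nr3c1 call in liver, with liver fitted alone. Of the 4 other Nr3c1 probe sets, 1431378_PM_at was called higher and 1453860_PM_s_at lower in liver at 3 months (0.44 and -0.44), both dimmer than the median of the arrays and kept in 9 and 6 of the 12 fits.

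The mineralocorticoid receptor Nr3c2 (1435991_PM_at) showed its only called genotype difference in liver at 6 months. KO livers had 6.24, 6.88 and 7.12, all below the 7.68, 7.57 and 7.64 of WT livers (log2 difference -0.88, -1.84-fold, SE 0.15, adjusted p = 5.97e-05). KO 122970 was the lowest by far, and without that mouse the difference was -0.63 and still called. With liver fitted alone, the call was lost. At 3 months KO livers had 6.98, 7.47 and 7.77, against 7.25, 7.41 and 7.74 in WT livers, so the groups overlapped. In nervous tissue the differences ran from -0.23 to 0.01 and none was called.

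Hsd11b1 (1449038_PM_at), which supplies the receptors with active hormone, was higher in KO spinal cord and midbrain at 3 months. Spinal cord values were 8.85, 8.90 and 8.85 in KO mice, against 8.34, 8.38 and 8.28 in WT mice (0.53, 1.45-fold, SE 0.07, adjusted p = 2.87e-05), and this call held in all 12 fits that left out a mouse. Midbrain values were 8.16, 8.27 and 8.21 in KO mice and 7.80, 7.94 and 7.81 in WT mice (0.36, 1.29-fold, adjusted p = 0.0127), a call that 7 of the 12 fits kept and that any 3-month KO mouse, WT 1 or WT 3 of 3 months could end (adjusted p up to 0.191). The difference had the opposite sign in cerebellum at 3 months, with 9.40, 9.42 and 9.30 in KO mice against 9.53, 9.46 and 9.47 in WT mice (-0.11, not called). At 6 months the differences were 0.00 in cerebellum, 0.21 in midbrain and 0.23 in spinal cord, none of them called. In liver, the main site of this enzyme, KO and WT differed by 0.18 and 0.04 without a call.

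**Figure D2:**
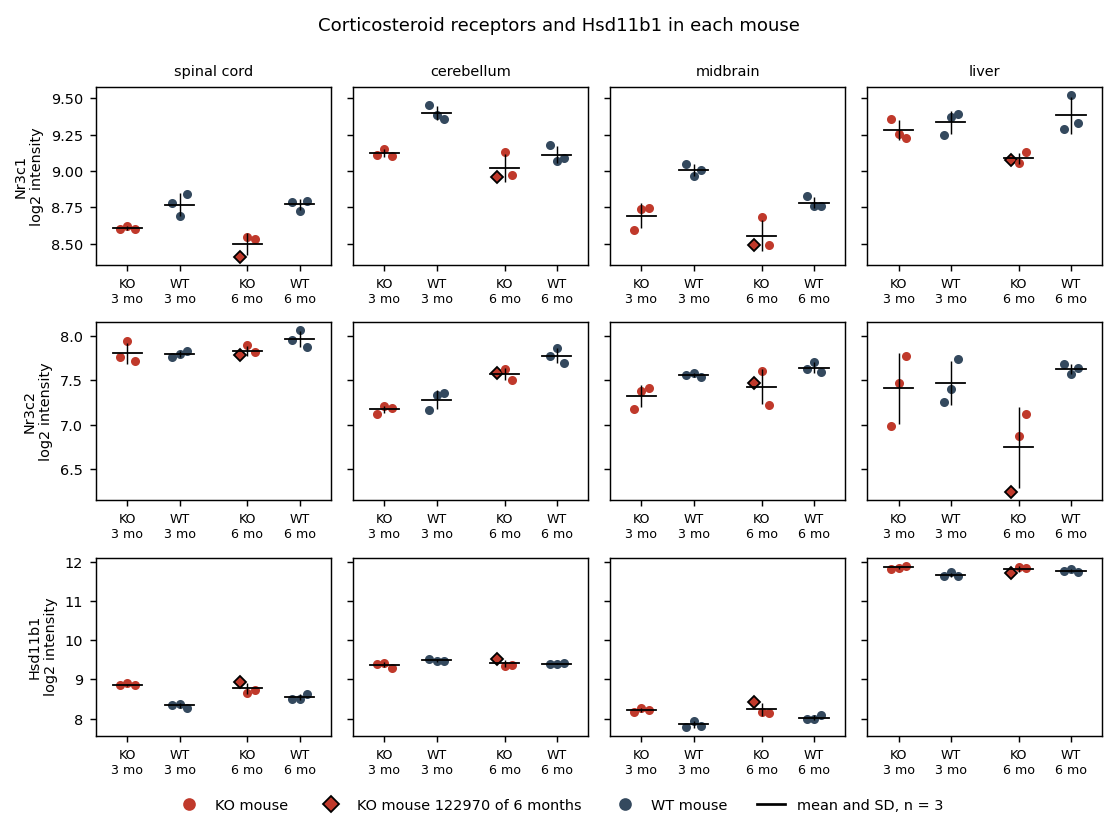
Log2 intensity (vertical axes) of Nr3c1, Nr3c2 and Hsd11b1 in every mouse, by tissue (columns), age and genotype (horizontal axis), with the mean and SD of 3 mice. KO points of Nr3c1 lie below WT points in most nervous panels, and the KO livers of 6 months spread from 6.24 to 7.12 for Nr3c2.

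Fkbp5 (1416125_PM_at), the feedback co-chaperone, was the only member whose KO mice lay above their WT mice in all 8 comparisons (6.11% to 9.35% of all probe sets in each). In cerebellum at 3 months it stood at 6.72, 6.59 and 6.58 in KO mice and at 5.38, 5.59 and 5.49 in WT mice (log2 difference 1.14, SE 0.20, adjusted p = 0.00149). In spinal cord at 3 months the values were 8.08, 8.18 and 8.04 in KO mice, against 7.51, 7.66 and 7.31 in WT mice, and in midbrain 7.61, 7.77 and 7.57 in KO mice, against 7.07, 7.0 and 7.09 in WT mice. The groups were apart in each tissue, yet the spinal cord and midbrain differences (0.61 and 0.60) were not called (adjusted p = 0.432 and 0.379). At 6 months KO 122970 was far above its group in every nervous tissue, at 7.71 in cerebellum, 8.62 in midbrain and 8.96 in spinal cord. In cerebellum the other KO mice had 6.64 and 6.88, against 5.99, 6.39 and 6.23 in WT mice. In midbrain they had 7.89 and 7.93, against 7.24, 7.42 and 7.12 in WT mice, and in spinal cord 8.09 and 8.34, against 7.59, 7.65 and 7.67 in WT mice. Even the lowest KO mouse thus exceeded every WT mouse. The differences of 0.87 in cerebellum and 0.89 in midbrain missed the threshold (adjusted p = 0.0548 and 0.0588) but passed it with the mouse as a block over its tissues (0.0416 and 0.0436), and that of 0.83 in spinal cord missed it in both (0.0989 and 0.0744). Without KO 122970 they were 0.55, 0.65 and 0.58, of which the midbrain difference was called (adjusted p = 0.0280), and without KO 122972 they were 1.09, 1.02 and 1.01, all called.

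Averaged over the nervous tissues of each mouse, Fkbp5 was called higher at 3 months (0.78), at 6 months (0.86) and over both ages (0.82, 1.77-fold, SE 0.11, adjusted p = 0.00158). The call over both ages held in all 12 fits that left out a mouse, whereas that at 3 months was lost on leaving out any mouse of 3 months (adjusted p up to 0.103) and that at 6 months without any WT mouse of 6 months (adjusted p up to 0.117). In liver the gene was higher at both ages. KO livers had 9.48, 9.90 and 9.47 at 3 months, against 8.84, 8.71 and 8.64 in WT livers (0.89, 1.86-fold, adjusted p = 0.00315). At 6 months KO livers had 10.35, 9.60 and 9.92, against 8.98, 8.94 and 8.61 in WT livers (1.11, 2.16-fold, adjusted p = 2.00e-04). A dimmer probe set, 1448231_PM_at, had 7.18, 7.57 and 7.29 in KO livers and 5.74, 5.94 and 5.41 in WT livers at 3 months (1.65, 3.15-fold, adjusted p = 3.3e-05). At 6 months its KO livers had 7.46, 5.78 and 7.06 and its WT livers 6.18, 5.89 and 5.72, which overlapped (0.83, adjusted p = 0.0307, and 0.49 without KO 122970, adjusted p = 0.182; the call was also lost without KO 122973, WT 2 or WT 3 of 6 months). The third probe set, 1447736_PM_at, was below the array median and differed by no more than 0.08 in any comparison.

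Tsc22d3 (1420772_PM_a_at) encodes the glucocorticoid-induced leucine zipper GILZ, which dampens inflammatory signalling. It was higher in KO nervous tissue and lower in KO liver of 6 months. Spinal cord values at 3 months were 10.48, 10.55 and 10.64 in KO mice, against 9.91, 10.06 and 10.10 in WT mice (0.54, adjusted p = 0.0181). In cerebellum KO mice had 9.80, 9.82 and 10.00 at 3 months, against 9.35, 9.34 and 9.50 in WT mice (0.48, adjusted p = 0.0403), and 10.00, 9.87 and 10.06 at 6 months, against 9.44, 9.37 and 9.56 in WT mice (0.52, adjusted p = 0.0387). Midbrain values at 3 months were 10.08, 10.06 and 10.19 in KO mice and 9.49, 9.69 and 9.51 in WT mice (0.55, adjusted p = 0.0175). Every KO mouse lay above every WT mouse in all 6 nervous comparisons, as 6.11% to 9.35% of all probe sets did in each. This includes 6 months in spinal cord (0.27) and midbrain (0.37), which were not called. Each of the 4 calls of this probe set stood near the threshold. Of 12 fits that left out a mouse, 7 kept it in spinal cord (lost without any KO mouse or WT 1 or WT 2 of 3 months, adjusted p up to 0.171) and 7 in midbrain (any KO mouse or WT 1 or WT 3 of 3 months, up to 0.128), while in cerebellum 2 kept it at 3 months and 4 at 6 months (up to 0.172 and 0.281). The second probe set, 1425281_PM_a_at, was called in spinal cord at 3 months (0.58) and in cerebellum at both ages (0.79 and 0.66) but not in midbrain (0.48 and 0.35). Its cerebellum call of 3 months held in all 12 fits, that of spinal cord was lost without KO 122972 or WT 1 of 3 months and that of cerebellum at 6 months without KO 122970 or WT 2 of 6 months (adjusted p up to 0.113). KO 122970 of 6 months, so high for Fkbp5, was the lowest of its group for Tsc22d3 in spinal cord (10.47, against 10.50 and 10.69). The mean of each mouse over its nervous tissues gave 10.12, 10.14 and 10.28 in KO mice and 9.58, 9.70 and 9.70 in WT mice at 3 months. At 6 months these means were 10.25, 10.15 and 10.34 in KO mice and 9.84, 9.89 and 9.85 in WT mice. Both differences were called (0.52 and 0.39, adjusted p = 5.46e-04 and 0.00777), as was that over both ages (0.45, 1.37-fold, SE 0.04, adjusted p = 4.44e-05), the last in all 12 fits that left out a mouse.

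In liver Tsc22d3 did not follow nervous tissue. At 3 months KO livers had 9.61, 9.59 and 10.05, against 9.54, 9.56 and 10.06 in WT livers, with both groups spread over the same range (0.03, not called). At 6 months KO livers had 9.19, 9.07 and 8.95, against 10.14, 9.87 and 10.23 in WT livers (-1.01, -2.01-fold, SE 0.11, adjusted p = 6.17e-08). The second probe set gave -1.11 (adjusted p = 1.45e-08), and both calls held in all 12 fits that left out a mouse. The genotype difference at 6 months less that at 3 months was itself called in liver (-1.04, adjusted p = 6.28e-05), as was liver less nervous tissue at 6 months (-1.40, adjusted p = 2.21e-09). Both genotypes differed between the ages in the fit of all tissues. KO livers of 6 months were 0.68 below those of 3 months (adjusted p = 1.37e-04). WT livers of 6 months were 0.36 above those of 3 months (adjusted p = 0.0386, lost without WT 1 or WT 2 of 3 months or WT 1 or WT 3 of 6 months, up to adjusted p = 0.192). With liver fitted alone, neither age difference was called, nor was the change of the genotype difference.

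Zbtb16 (1439163_PM_at) encodes the zinc finger transcription factor PLZF, a sensitive glucocorticoid target. Its nervous differences were large in size and wide in spread, and none was called. In cerebellum at 3 months KO mice had 6.30, 6.23 and 6.21, against 5.48, 5.28 and 5.19 in WT mice, groups well apart with a difference of 0.93 (SE 0.27, adjusted p = 0.12). Spinal cord at 3 months had 7.44, 7.29 and 7.09 in KO mice and 6.74, 6.59 and 6.43 in WT mice, again without overlap (0.69). At 6 months KO 122970 had 7.47 in cerebellum, 7.82 in midbrain and 8.36 in spinal cord, each above all other mice in that tissue. KO 122972 had 5.95, 6.76 and 7.45 in the same tissues, inside the WT ranges of 5.94 to 6.17, 6.68 to 6.92 and 7.25 to 7.57. The differences of 6 months were 0.60, 0.43 and 0.46 with KO 122970 and 0.18, 0.12 and 0.20 without it. The mean over nervous tissues missed the threshold over both ages (0.58, adjusted p = 0.055).

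In liver Zbtb16 turned its direction between the ages. KO livers of 3 months had 7.05, 7.47 and 7.68, against 6.13, 5.61 and 5.58 in WT livers (1.63, 3.08-fold, SE 0.27, adjusted p = 7.30e-05). KO livers of 6 months had 7.82, 6.55 and 7.10, all below the 8.26, 8.13 and 7.95 of WT livers (-0.96, -1.94-fold, adjusted p = 0.0159). Hence WT livers of 6 months exceeded those of 3 months by 2.34 (5.07-fold, adjusted p = 8.94e-08), whereas KO livers of 6 months and 3 months differed by -0.24 without a call. The change of the genotype difference between the ages was called (-2.58, adjusted p = 2.60e-05), and the second probe set, 1427638_PM_at, gave 1.84 at 3 months, -0.99 at 6 months and 2.26 between the WT ages. The calls at 3 months and between WT ages held for both probe sets in all 12 fits that left out a mouse. The call at 6 months was kept in 8 of 12 fits, lost without KO 122972 or KO 122973 or WT 1 or WT 2 of 6 months (adjusted p up to 0.0771), and for the second probe set in 3 of 12 (up to 0.243). With liver fitted alone neither probe set was called at 6 months or for the change of the genotype difference.

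Arrdc2 (1428352_PM_at) encodes an arrestin-like adaptor protein that hormone treatment induces quickly. At 3 months it gave the largest called nervous differences among the 10 genes. Spinal cord values were 7.16, 7.45 and 7.22 in KO mice, against 6.03, 5.85 and 6.26 in WT mice (1.23, 2.34-fold, SE 0.27, adjusted p = 0.0206). Cerebellum values were 5.88, 5.80 and 5.89 in KO mice, against 4.46, 4.60 and 4.92 in WT mice (1.20, 2.29-fold, adjusted p = 0.0202). Midbrain values were 6.51, 6.73 and 6.73 in KO mice, against 5.34, 5.39 and 5.73 in WT mice (1.17, 2.25-fold, adjusted p = 0.0396). The groups were clearly apart in each of these tissues. At 6 months they overlapped throughout: spinal cord had 7.57, 6.60 and 6.90 in KO mice and 7.02, 6.76 and 6.92 in WT mice, and the differences were 0.12, 0.29 and 0.32. WT cerebellum of 6 months exceeded that of 3 months by 1.05 (adjusted p = 0.0374, a call that 3 of 12 fits kept, with up to 0.193), while the like steps in WT spinal cord (0.85) and midbrain (0.77) were not called. The change of the genotype difference between the ages was not called in any nervous tissue (in spinal cord -1.11, adjusted p = 0.942), as for all other members (none of 81 tests, 0.0518% of all), so that a difference between the ages is not shown. The mean over nervous tissues was called at 3 months (1.20, adjusted p = 0.00839) and over both ages (0.72, adjusted p = 0.0141), each in all 12 fits that left out a mouse, and not at 6 months (0.25, adjusted p = 0.742). The tissue calls were less firm, kept in 7 of 12 fits in spinal cord and cerebellum, where any KO mouse or WT 1 or WT 2 of 3 months could end them, and in 3 of 12 in midbrain (adjusted p up to 0.269). In liver at 6 months KO mice had 6.12, 5.98 and 5.96, below the 7.77, 6.64 and 6.53 of WT mice (-0.95, -1.94-fold, adjusted p = 0.0148). That call was lost without KO 122973 or WT 1 of 6 months (adjusted p up to 0.207) and with liver fitted alone.

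**Figure D3:**
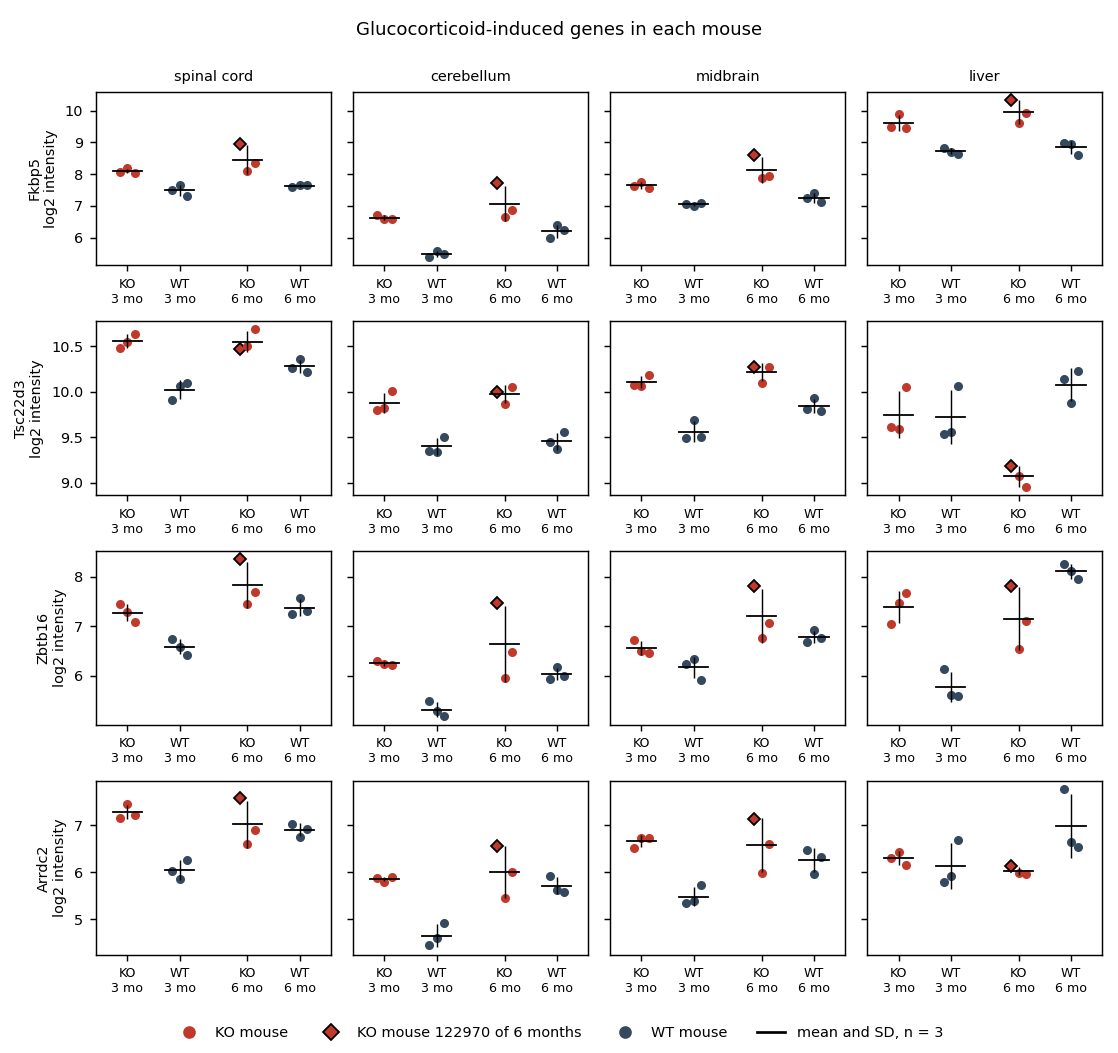
Log2 intensity (vertical axes) of Fkbp5, Tsc22d3, Zbtb16 and Arrdc2 in every mouse, by tissue (columns), age and genotype (horizontal axis), with the mean and SD of 3 mice, and KO 122970 of 6 months as a diamond. The diamond is the top KO point of its age in each nervous panel of Fkbp5, Zbtb16 and Arrdc2, and in liver the WT points of 6 months lie above the KO points for Tsc22d3, Zbtb16 and Arrdc2.

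Errfi1 (1416129_PM_at) encodes MIG6, an inhibitor of the epidermal growth factor receptor. It was higher in all 3 nervous tissues of KO mice at 3 months. Spinal cord had 9.97, 10.16 and 10.12 in KO mice, against 9.56, 9.63 and 9.68 in WT mice (0.46, 1.38-fold, SE 0.08, adjusted p = 7.35e-04). Cerebellum had 9.15, 9.28 and 9.23 in KO mice and 8.76, 8.90 and 8.99 in WT mice (0.34, adjusted p = 0.0273), and midbrain had 8.90, 9.06 and 9.0 in KO mice and 8.53, 8.55 and 8.71 in WT mice (0.39, adjusted p = 0.0106). No group overlapped at that age. The spinal cord call held in all 12 fits that left out a mouse, and the others in 8, being lost without KO 122972 or KO 122973 or WT 1 or WT 2 of 3 months. At 6 months the differences were 0.24, 0.12 and 0.14 and were not called, and in liver they were 0.08 and 0.01. The mean over nervous tissues was called over both ages (0.28, adjusted p = 0.00552).

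Klf9 (1428288_PM_at), a Kruppel-like transcription factor that responds to glucocorticoid and thyroid hormone, was called in liver at 3 months. KO livers lay between 10.99 and 11.04, above the 10.84, 10.63 and 10.71 of WT livers (0.28, 1.22-fold, adjusted p = 0.0112), and 3 other probe sets of the gene gave 0.37, 0.60 and 0.68, all called. The call of the brightest was lost without WT 2 of 3 months (adjusted p = 0.0803) and that at 0.37 without KO 122972 of 3 months (0.0523). None of these liver calls remained with liver fitted alone. In nervous tissue its differences ran from 0.00 in midbrain at 6 months to 0.26 in spinal cord at 3 months without a call, although KO spinal cord at 3 months (10.80, 10.93 and 10.92) lay above WT spinal cord (10.58, 10.60 and 10.68). Hif3a (1425428_PM_at), a member of the hypoxia-inducible factor family, was dim, with a mean of 4.72 over all arrays. In spinal cord at 3 months it had 5.19, 5.37 and 5.46 in KO mice, against 4.72, 4.70 and 4.48 in WT mice. Its nervous differences of 0.43 to 0.74 were not called singly, with groups apart in all 3 tissues at 3 months and overlapping at 6 months. The mean over nervous tissues was called over both ages (0.58, adjusted p = 0.0212), in 7 of 12 fits that left out a mouse (adjusted p up to 0.0596 without KO 122972, KO 122973 or WT 3 of 3 months or WT 1 or WT 2 of 6 months). A second probe set, 1446708_PM_at, gave 0.52 (adjusted p = 0.014), and in liver the brightest gave 0.06 and -0.12. The second and all remaining probe sets of Hif3a had means below the array median. In single nervous tissues the remaining ones went both ways without a call. They ran from -0.03 to 0.49 (1425429_PM_s_at), -0.17 to 0.25 (1459052_PM_at) and -0.21 to 0.10 (1421572_PM_at).

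With 1 value per mouse, 6 of 27 probe sets were higher and 1 lower in KO nervous tissue at 3 months (0.764% of all probe sets in each direction). At 6 months 3 were higher and none lower (0.344% and 0.324%), and over both ages 11 were higher and 2 lower (1.14% each). The 11 belonged to Hsd11b1, Fkbp5, Tsc22d3, Arrdc2, Hif3a and Errfi1, and the 2 to Nr3c1. Between the ages, WT nervous tissue gave 1 probe set higher and 1 lower at 6 months than at 3 months in 81 tests (0.328% and 0.215% of all), these being Arrdc2 and Nr3c1 in cerebellum (-0.29 for Nr3c1, lost without any WT mouse, adjusted p up to 0.145), and KO nervous tissue gave none (0.0141% and 0.0459%). WT livers of 6 months gave 5 higher and none lower of 27 against those of 3 months (6.09% and 4.66%), and KO livers gave none higher and 5 lower (5.68% and 5.22%). KO livers of 6 months were lower for Nr3c2 (-0.66, adjusted p = 0.0026), Tsc22d3, a further Nr3c1 probe set (-0.58) and a Klf9 probe set (-0.49), of which Nr3c2 lost its call without KO 122970 of 6 months (adjusted p = 0.0587). None of these KO calls remained with liver fitted alone. The change of the genotype difference between the ages was called in liver for 5 of 27 probe sets (7.14% of all), of Tsc22d3, Zbtb16 and Nr3c2. The liver difference less the mean nervous difference was called for 6 at 3 months (6.01%) and for 7 at 6 months (7.13%). Ages were separate mice, so age and cohort cannot be told apart. These comparisons share samples with those of the genotypes.

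A stress difference between single animals was sought in the deviation of each array from its group mean. Among the 12 mice, a pair of KO mice of 6 months stood apart. Averaged over the brightest probe sets of the 7 induced genes, KO 122970 deviated by 0.37 in cerebellum, 0.35 in midbrain, 0.31 in spinal cord and 0.21 in liver. It was above its group mean in 20 of 21 nervous values and the highest of its group in 25 of 28 values. KO 122972 of the same age deviated by -0.34, -0.30, -0.26 and -0.17 in the same order, was above its group mean in 0 of 21 nervous values and was the lowest of its group in 25 of 28. The mean nervous deviations of the other 10 mice stayed between -0.05 and 0.04. In liver, WT 1 of 6 months (0.20) and WT 3 of 3 months (0.14) deviated in the same direction as KO 122970 without doing so in nervous tissue. Deviations within a group of 3 sum to 0, so a high mouse sets the others low, and groups of this size allow no test for a single animal.

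**Figure D4:**
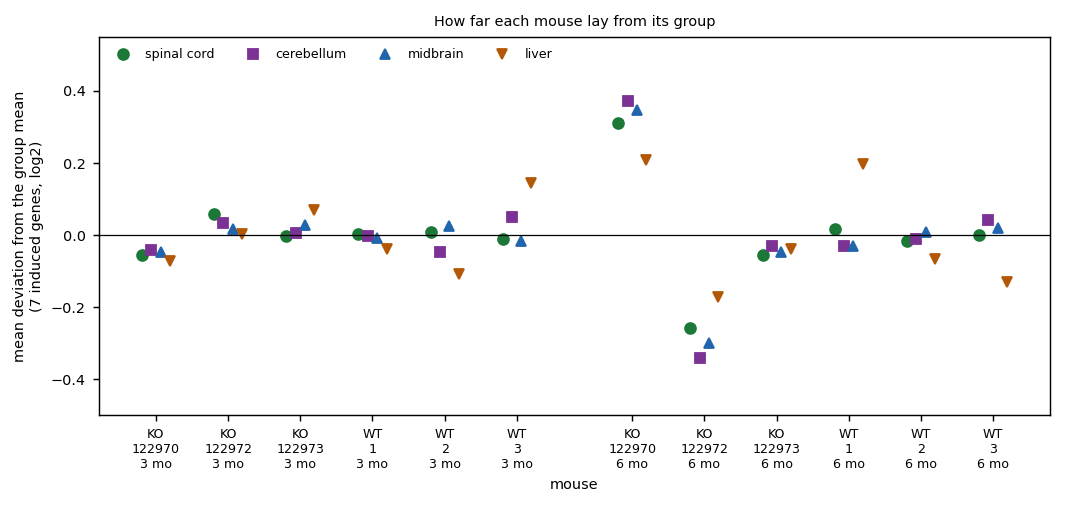
Mean deviation from the group mean (log2, 7 induced genes) of each mouse (horizontal axis) in spinal cord, cerebellum, midbrain and liver (marker shapes). KO 122970 and KO 122972 of 6 months lie apart in all 4 tissues, up to 0.37 and down to -0.34.

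The members differed in how far the tissues of a mouse deviated together. The correlation within a mouse across its 3 nervous tissues, estimated for each brightest probe set, was 0.91 for Zbtb16, 0.90 for Arrdc2, 0.83 for Fkbp5, 0.73 for Hsd11b1, 0.67 for Errfi1, 0.66 for Hif3a and 0.55 for Nr3c1. It was 0.50 for Klf9, 0.48 for Nr3c2 and 0.36 for Tsc22d3. Over all probe sets the consensus was 0.0476. Across the 36 nervous arrays, deviations of Fkbp5 correlated with those of Zbtb16 (r = 0.87), Hsd11b1 (0.72), Arrdc2 (0.66) and Hif3a (0.63), and inversely with those of Nr3c1 (-0.59). The values were 0.45 for Errfi1 and 0.28 for Klf9, and those for Tsc22d3 and Nr3c2 (0.03 each) were close to 0. The arrays are 3 tissues of each of 12 mice, and much of this rested on KO 122970 of 6 months. Over the 33 arrays without it, in an alternative added after the data had been seen, the values were 0.40 for Zbtb16, 0.15 for Hsd11b1, -0.06 for Arrdc2, 0.04 for Hif3a and -0.45 for Nr3c1, and 0.17 for Errfi1, -0.37 for Klf9, 0.05 for Tsc22d3 and 0.09 for Nr3c2. The 5 probe sets whose deviations were most like those of Fkbp5 belonged to Sgk3 (0.87), Zbtb16, Rnf170 (0.81), Mpg (0.80) and Lrg1 (0.80). Without that mouse Sgk3 had 0.61 and Rnf170 0.58, whereas Mpg had 0.22 and Lrg1 0.05.

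In WT mice the members also differed between tissues, as 60.9% of all tests between tissue pairs did (105 of 162 for the members). Hsd11b1 was highest in liver (11.7 ± 0.07, SD, n = 6, both ages), followed by cerebellum (9.44 ± 0.05), spinal cord (8.44 ± 0.13) and midbrain (7.94 ± 0.12), each step called. Errfi1 was likewise highest in liver (12.3 ± 0.10), then spinal cord, cerebellum and midbrain, each step called. Fkbp5 ran from liver (8.78 ± 0.16) through spinal cord (7.57 ± 0.14) and midbrain (7.16 ± 0.15) to cerebellum (5.85 ± 0.42), each step called. Nr3c1 was close in liver (9.36 ± 0.10) and cerebellum (9.25 ± 0.16), which were not told apart by the test, and lower in midbrain (8.90 ± 0.13) and spinal cord (8.77 ± 0.05). Nr3c2 was highest in spinal cord (7.88 ± 0.11), with midbrain, liver and cerebellum not told apart. Tsc22d3 was highest in spinal cord (10.15 ± 0.16), followed by liver, midbrain and cerebellum, each step called. Klf9 was highest in cerebellum (11.48 ± 0.11) and next in midbrain, with spinal cord and liver not told apart. For Zbtb16 and Arrdc2, spinal cord and liver were not told apart, and midbrain and cerebellum followed in that order. The liver SD of Zbtb16 was 1.30, since its WT ages lay far apart. Hif3a was lowest in liver (3.89 ± 0.35) and not told apart among the nervous tissues.

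Further induced genes, a list of 34 of which 30 were measured, were higher in KO nervous tissue wherever they were called. Cerebellum had 11 called higher at 3 months and 3 at 6 months, midbrain 6 and 5, and spinal cord 8 and 4, and none was called lower (0.0799% to 0.366% of all probe sets were called higher in these comparisons). The list medians at 3 and 6 months were 0.31 and 0.19 for midbrain, 0.43 and 0.24 for spinal cord and 0.47 and 0.24 for cerebellum, where the median of all probe sets lay within 0.02 of 0. Plin4, a lipid droplet coat protein, was called in all 8 comparisons (1.08 to 1.82), Cdkn1a, the cell cycle inhibitor p21, in 6 (0.87 to 1.89 over all 8), Angptl4, an inhibitor of lipoprotein lipase, in 6 (0.43 to 1.32), and Mfsd2a, a lysolipid carrier of the blood-brain barrier, in 4. These 4 genes are in the study's own selection from these arrays and are not independent evidence of a direction. Nor is the list as a whole, which was chosen with earlier results of these data known and whose medians include the 4 genes. Sult1a1, a sulfotransferase, was called in 6. Sgk1, a kinase induced by both receptors and the holder of the full palindrome printed above, was called in the 3 nervous tissues at 3 months. Its spinal cord values were 10.73 to 11.08 in KO mice, all above the 9.14, 9.08 and 9.80 of WT mice (1.60, 3.02-fold, SE 0.20, adjusted p = 4.52e-06). At 6 months the same tissue had 10.80, 10.45 and 10.95 in KO mice and 10.90, 10.51 and 10.53 in WT mice, which overlapped (0.09). WT spinal cord of 6 months was called higher than that of 3 months for Sgk1, Plin4 and Klf15, and KO nervous tissue gave no call between the ages for this list.

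In liver 12 of the 30 were higher and none lower at 3 months (4.92% and 4.53% of all probe sets), and 7 were higher and 5 lower at 6 months (5.68% and 5.81%), with medians of 0.36 and 0.03. Mt1, a metallothionein, was higher at both ages (2.20 and 3.32), and Fam107a at both ages (1.61 and 1.43). The 5 lower at 6 months were Per1 (-0.79), Dusp1, a phosphatase of MAP kinases (-1.15), Tat, the tyrosine aminotransferase long used to follow glucocorticoid action in liver (-0.78), Bcl6 (-1.38) and Klf15 (-0.58). Together with Tsc22d3, Zbtb16 and Arrdc2 these were lower in the same livers in which Fkbp5, Plin4 and Cdkn1a were higher.

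**Figure D5:**
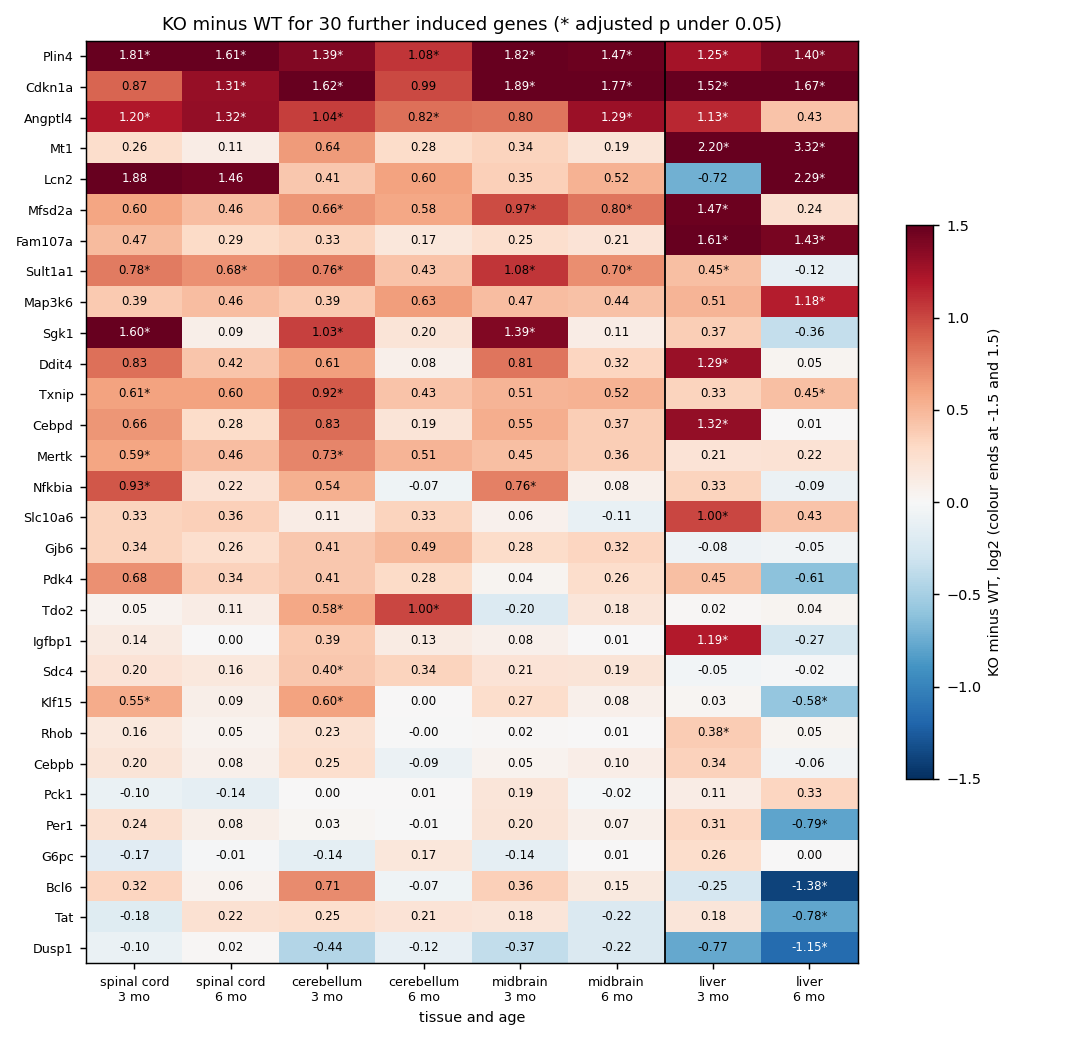
KO minus WT in log2 units for the 30 further induced genes (rows, by mean difference, brightest probe set of each) in the 4 tissues at 3 and 6 months (columns), with an asterisk where limma's adjusted p was under 0.05. No nervous tissue column holds a called decrease, and the liver at 6 months holds 5.

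In the comparisons of single tissues, genes that act on the receptor or its ligand were called only in liver. Of 12 measured genes for chaperones, steroid metabolism and transport (15 listed), none was called in nervous tissue by limma, although 0 to 3 passed an unadjusted p of 0.05 in each comparison. Of all tests in nervous tissue, 0.161% were called higher and 0.104% lower. In liver Akr1d1, a steroid reductase that clears the hormone, was higher at 3 months (0.37) and lower at 6 months (-0.73), Abcb1a, a drug and steroid efflux pump, was lower at 6 months (-0.91), and H6pd, which supplies HSD11B1 with its cofactor, was higher at 6 months (0.55). Of 8 measured coregulators (13 listed), Nrip1 in liver at 6 months was the only call. In liver 4.92% of all probe sets were called higher and 4.53% lower at 3 months, and 5.68% and 5.81% at 6 months. Clock genes, whose targets share the daily rhythm of the hormone, were examined because the hour of death is unknown. Dbp, a clock output gene, was lower in 7 of 8 comparisons (-0.85 to -0.40), the exception being liver at 6 months (-0.17). Npas2, a partner of ARNTL in the clock, was higher in cerebellum at 3 and 6 months (0.62 and 0.65, adjusted p = 0.0273 and 0.0351) and lower in liver at 3 months (-0.43). Its probe set was dim, with a mean over all arrays (4.12) below the median of the array medians (4.25). With 1 value per mouse over nervous tissue and both ages, Npas2 (0.42, adjusted p = 1.3e-04) and Arntl were higher and Dbp, Per3 (-0.19, adjusted p = 0.00431), Hlf and Ciart lower (1.14% of all probe sets in each direction). In liver Arntl and Clock were higher and Per2 and Per3 lower in KO mice at both ages, among 14 measured clock genes. The part of sampling hour in the differences of the members was not tested. Immediate early genes gave 1 call higher (Egr2 in spinal cord at 3 months) and 1 lower (Npas4 in midbrain at 3 months) in nervous tissue. Both probe sets were dim, with means over all arrays of 3.56 and 3.38. In KO liver at 6 months 5 of 10 were lower (5.81% of all probe sets), led by Nr4a1 (-2.63).

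Markers of other cell types moved in some of the same groups. The 6 granulocyte markers, all measured, summed to between 2460 and 4220 on the linear scale in KO spinal cord at 3 months and between 582 and 1740 in WT spinal cord, with Ngp, Camp and Ltf called. At 6 months the sums were 607 to 962 in KO and 388 to 1070 in WT spinal cord, and in cerebellum and midbrain no granulocyte marker was called higher. Of the 6 adipocyte markers, 3 were measured and summed to 350 to 762 in KO livers and 242 to 262 in WT livers at 3 months (Adipoq and Retn called), and to 173 to 304 in KO and 208 to 231 in WT livers at 6 months. In spinal cord they summed to 29.8 to 1120 in KO and 24.9 to 277 in WT mice at 3 months. At 6 months these sums were 76.3 to 379 in KO and 32.5 to 119 in WT mice, without a call at either age. The liver marker Alb was called higher in KO spinal cord at 6 months (2.25, limma adjusted p = 0.00317), and the other measured liver markers were not. Among oligodendrocyte markers Opalin was lower in 4 nervous comparisons and the median of the list stayed within 0.22 of 0. The 7 endothelial markers, all measured, had higher sums in KO mice without overlap in all 6 nervous comparisons, though single markers went in both directions. In spinal cord they summed to 1890 to 1930 in KO and 1540 to 1680 in WT mice at 3 months, and to 1920 to 2050 in KO and 1620 to 1720 in WT mice at 6 months. In cerebellum the sums were 1210 to 1250 in KO and 1030 to 1120 in WT mice at 3 months, and 1240 to 1410 in KO and 1130 to 1180 in WT mice at 6 months. In midbrain they were 1550 to 1580 in KO and 1370 to 1490 in WT mice at 3 months, and 1730 to 1980 in KO and 1420 to 1460 in WT mice at 6 months. The only single call in these comparisons was Cldn5, a tight junction protein, in midbrain at 6 months (0.61, adjusted p = 0.0209), and the list medians ran from -0.10 in midbrain at 3 months to 0.30 in midbrain at 6 months. A linear sum weighs the brightest markers most. Tek was lower in all 6 comparisons (-0.41 to -0.01). In midbrain at 3 months Cdh5 and Kdr (-0.19 each) and Flt1 (-0.10) were lower too, while Cldn5, Pecam1 and Slc2a1 were higher. With 1 value per mouse over both ages, Cldn5 and the glucose carrier Slc2a1 were called higher. In KO livers the endothelial sums were 938 to 953 at 3 months, within the 861 to 1030 of WT livers, and 767 to 812 at 6 months, below the 886 to 960 of WT livers, with Cldn5 lower at both ages. No astrocyte, choroid plexus, muscle or red cell marker was called between KO and WT nervous tissue, though the muscle list had medians of 1.17 and 0.61 in spinal cord at 3 and 6 months and the choroid plexus list -0.74 in cerebellum and 0.92 in midbrain at 3 months. In cerebellum and midbrain, where Tsc22d3, Arrdc2 and Errfi1 were called higher at 3 months, the granulocyte sums of that age were 53.7 to 69.1 and 44.8 to 56.5 in KO mice and 52.6 to 118 and 46.8 to 63.5 in WT mice. The part of these cells in the results above was not tested.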

How the data were processed

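RNA of each tissue was extracted on columns, labelled with biotin and hybridised to HT MG-430 PM array plates, 1 array per tissue and mouse. The authors corrected background, quantile-normalised and summarised all arrays by RMA in R 2.14.0, and deposited log2 intensities for 45141 probe sets, from which 104 control probe sets were left out here. Of the 45037 kept, 28898 had 1 gene symbol in the platform annotation, 551 had several and 15588 had none. Differences were tested with limma 3.58.1 in R 4.3.3 by 1 fit of 16 group means, with Benjamini-Hochberg adjustment per comparison over all probe sets and a threshold of 0.05. A second fit used the mean of the 3 nervous tissues of each mouse. The statistics were tested on simulated data first. The 10 genes and all lists were chosen with earlier results of these data known. Named were all 10 genes by every probe set, the brightest (highest mean over all arrays) leading, then from each other list at most 6 genes with the most called comparisons by genotype, and the 5 probe sets most correlated with Fkbp5. Genes named beyond these, among them Mt1, Fam107a, Klf15 and the single calls of the lists, were chosen after their values were seen. Alternatives were the tissue-wise fit, the mouse as a block, a nested F test as in the study's methods, a filter on dim probe sets, renewed quantile normalisation, a trended robust prior, a stricter threshold and leaving out each mouse. RMA compresses differences of dim probe sets and quantile normalisation removes any shift common to a whole array. The number of arrays limits the precision. Processing order and scan batches are not given in the sources used here. Files were read in Python 3.11.15 with pandas 2.3.3 for the promoter windows and figures (matplotlib 3.10.9).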

Additional observations from a re-analysis of the deposited data

Results flagged for a closer look

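The genotype difference of several members differed between groups by limma's test of the difference itself. In liver, KO minus WT at 6 months less that at 3 months was called for Tsc22d3 (-1.04 and, for the second probe set, -1.26, adjusted p = 6.28e-05 and 4.69e-06), for Zbtb16 (-2.58 and -2.83, adjusted p = 2.60e-05 and 1.41e-04) and for Nr3c2 (-0.82, adjusted p = 0.0107), 5 of 27 probe sets, where 7.14% of all probe sets were called. The Nr3c2 call was lost without KO 122970 of 6 months or KO 122973 of 3 months (adjusted p up to 0.0634), and none of the 5 remained with liver fitted alone.

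The liver difference less the mean nervous difference was called at 3 months for 6 probe sets (6.01% of all): Errfi1 (-0.32, adjusted p = 0.0273), Tsc22d3 (-0.49 and -0.47, adjusted p = 0.0197 and 0.0319), Arrdc2 (-1.03, adjusted p = 0.0364), the dimmer probe set of Zbtb16 (1.29, adjusted p = 0.0361) and that of Fkbp5 (1.25, adjusted p = 0.00838). None of these 6 was called without KO 122972 of 3 months. At 6 months it was called for 7 probe sets (7.13% of all): Tsc22d3 (-1.40, -1.54 and, for its dimmest probe set, -0.44, adjusted p = 2.21e-09, 5.07e-10 and 0.0318), Zbtb16 (-1.45 and -1.47, adjusted p = 0.00235 and 0.0130), Arrdc2 (-1.20, adjusted p = 0.0116) and Nr3c2 (-0.70, adjusted p = 0.00767). Without WT 1 of 6 months 4 of the 27 probe sets were called.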

How the results depend on the processing

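Groups of 3 mice, a wider spread in liver and dim probe sets (8 of 27 under the array median) limited what could be seen. Of the values for single probe sets, 1083 under fits leaving out a mouse kept direction and side of the threshold, 235 lost and 11 gained a call and 3 changed sign, and under other settings 585 kept it, 116 lost and 17 gained a call. Those that changed sign were Hif3a in liver, never called (-0.11 to 0.26 at 3 months, below 0 without KO 122973 at -0.03 or WT 1, and -0.30 to 0.075 at 6 months, above 0 without WT 1). The cause of the changes was not tested, except that a stricter threshold cannot call more by construction.

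Counts of members called among 27 probe sets follow, each with the value reported first. The share of all probe sets called was not determined under these settings or on leaving out a mouse. The counts therefore show only how the calls of the members moved. At an adjusted p of 0.01, nervous calls by genotype were 16 and 5 higher and 1 and 0 lower, liver calls lower 8 and 4, per-mouse calls higher 3 and 1 at 6 months and 11 and 4 over both ages, per-mouse calls lower 1 and 0 at 3 months and 2 and 1 over both ages, calls between ages 1 and 0 higher and 1 and 0 lower in WT nervous tissue, 5 and 3 higher in WT liver and 5 and 3 lower in KO liver, and liver against nervous tissue 6 and 1 at 3 months and 7 and 4 at 6 months. With each tissue fitted alone, liver calls were 11 and 2 higher and 8 and 2 lower, nervous calls lower 1 and 0, calls between ages 1 and 2 higher and 1 and 0 lower in WT nervous tissue, 5 and 2 higher in WT liver and 5 and 0 lower in KO liver, and changes of the genotype difference in liver 5 and 0. The nested F test gave 49 nervous calls higher and 9 lower, without a share over all probe sets to set beside them. A filter on dim probe sets gave 3 calls higher between ages in WT nervous tissue and 3 nervous calls lower, a trended robust prior 2 and 3, with per-mouse calls of 7 higher over both ages and 2, 2 and 4 lower at 3 months, at 6 months and over both, and renewed quantile normalisation 1 per-mouse call lower over both ages. Per-mouse means without cerebellum gave 1 call higher at 6 months and 0 lower at 3 months, without midbrain 7 higher and 1 lower over both ages and 0 lower at 3 months, and without spinal cord 1 lower at 6 months.

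Over the 12 fits leaving out a mouse, nervous calls ranged from 5 to 19 higher and 0 to 2 lower, and liver calls from 9 to 11 higher and 4 to 9 lower (4 without WT 2 of 6 months). Per-mouse calls higher ranged from 4 to 11 at 3 months (11 without KO 122970 of 6 months), 1 to 5 at 6 months and 6 to 12 over both ages, and calls lower from 0 to 1, 0 to 1 and 1 to 2. Calls between ages ranged from 0 to 5 higher and 0 to 1 lower in WT nervous tissue (5 without KO 122970 of 6 months), 3 to 6 higher in WT liver and 3 to 7 lower in KO liver. Changes of the genotype difference in liver ranged from 5 to 7, and liver against nervous tissue from 0 to 8 at 3 months and 4 to 7 at 6 months.

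With the mouse as a block over its tissues (consensus correlation 0.0303), 18 nervous tests were called higher, 2 of them Fkbp5 at 6 months as given above, and no other call changed. That fit used 1 correlation for all probe sets, far below those of some members over nervous tissue (0.91 for Zbtb16). It therefore hardly models the pairing of tissues for these genes, and the unchanged calls do not show that pairing is without effect. Animals that shared a number at both ages were taken as separate mice, because tissues were collected at death. Deviations of such animals correlated between -0.147 and 0.0915 over 24 pairs. These values cannot decide whether the numbers pair the mice, because arrays known to share a mouse had a consensus correlation of only 0.0303. Using the number as a replicate block left every count between ages as it was (5 higher in WT liver and 5 lower in KO liver).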
